A study of Mus musculus with 18 samples.

Results

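The response of kidney cortex to 2 weeks of aristolochic acid I was measured in Klf15PTKO mice, abbreviated PTKO. It is given by 6 of the 18 RNA-seq libraries of the series: the 3 PTKO libraries of the 2-week toxin group, called AA 2wk, against the 3 PTKO libraries of the vehicle group, called DMSO, across all genes. The members were taken by the names of the columns in the deposited table. The mice were of the C57Bl/6 strain and the tissue was cortex from kidneys perfused with PBS. PTKO mice lack Klf15, a zinc finger transcription factor, in the proximal tubule; fl/fl mice carry the floxed alleles and serve here for 1 comparison with their own DMSO and AA 2wk groups. A PTKO group with the same 2 weeks of toxin and then 2 weeks of remodeling, called AA 4wk, serves for another. Every group has 3 libraries. The sources used here do not give the Cre line, the exons removed, or the age, sex and dose of the mice, nor the week at which vehicle kidneys were taken. No group with Cre and intact Klf15 is named, so loss of Klf15 and presence of Cre cannot be told apart. The labels do not say that the libraries of a group come from separate mice, and p-values measure only the spread between these samples, which may be technical.

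Aristolochic acid I is a nitroaromatic plant toxin. Organic anion transporters of the proximal tubule take it up from blood, reductases activate it, and the product forms adducts with DNA, which stop replication and can activate p53. The proximal tubule is rich in mitochondria and peroxisomes and lives largely on fatty acid oxidation; after injury its cells can lose transporters, express injury proteins such as Havcr1 and Lcn2, and re-enter the cell cycle, while leukocytes enter the interstitium.

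All values are RPKM, the number of reads scaled by transcript length and by library depth, and values of a group are given in the order of libraries number 1, 2 and 3. Differences are log2 fold changes with their SE on log2(RPKM + 1), a scale that understates the change of genes near or under 1 RPKM. The test was limma across 13624 genes with Benjamini-Hochberg adjustment, and a gene was called at an adjusted p under 0.05. Recovered depth was 21.9, 12.3 and 14.3 M reads in DMSO and 18.4, 14.4 and 12.4 M reads in AA 2wk. On the first principal component, which held 81.9% of the variance of the series, the DMSO libraries lay at -76.5, -77.5 and -70.9 and the AA 2wk libraries at 46.3, 41.6 and -7.1. AA 2wk number 3 therefore stood apart from its group, and many but not all results that rest on it are given with and without it. The fl/fl AA 2wk library numbered 3 lay at -7.3, its group's others at 34.0 and 48.6. DMSO number 3 carried 24.9 RPKM of the injury transcript Havcr1, against 0.978 and 0.62 in the other vehicle libraries. Markers of adipocytes, adrenal cortex and red blood cells were close to 0: Adipoq was listed at 0 in 5 of the 6 libraries, Cyp11b1 did not exceed 0.0871 RPKM, and Alas2, a red cell enzyme of heme synthesis, was not called. Genes with near-identical copies are uncertain in this table, since Gapdh, which every cell uses, was listed at 0.366 to 1.41 RPKM and Eno1 at 0; the globin genes were listed at 0 too, so they do not measure blood here.

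Klf15 (chromosome 6, 90461043 to 90491803, GRCm38.p6) was 28.5, 31.9 and 32.6 RPKM in PTKO DMSO and 12.5, 17.5 and 25.6 RPKM in PTKO AA 2wk, against 53, 61.3 and 65.5 RPKM in fl/fl DMSO. Each toxin library lay below each PTKO vehicle library. The remaining transcript fell by 0.76 on the log2 scale (SE 0.26, adjusted p = 0.0193). The call was lost without DMSO number 2 or 3 (adjusted p = 0.0505 and 0.0537) or AA 2wk number 1 or 2 (0.109 and 0.05). With a single value per gene, transcript from removed exons, remaining exons and other cell types cannot be told apart.

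Of 13624 tested genes, 8198 were called (60.2%), 6251 higher (45.9%) and 1947 lower (14.3%), and the groups did not overlap for 62.9% of tested genes. The count was 6698 in a fit of the 6 libraries alone, 6733 without AA 2wk number 1 and 6789 without number 2. A log2 difference of at least 1 was reached by 1870 higher and 593 lower genes, and a difference of 3 by 116 higher and 41 lower genes. The direction split depended on scaling. The median of all genes stood at 0.29 as deposited and at 0.01 after median-of-ratios scaling, and 76.3% of calls were higher as deposited, 49.9% after median-of-ratios scaling and 46.7% after quantile normalization. The transcript Kap alone held 50475, 44612 and 49783 of summed RPKM of 466875, 463242 and 469680 in DMSO, and 1529, 618 and 410 in AA 2wk. Its part in the split was not tested. A total of 3685 genes were called higher and 1947 lower under both scalings, so a rise well above 0.29 is relative to the typical gene and a rise near 0.29 is not.

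The 12 largest called rises without overlap were Lcn2, Cdkn1a, Havcr1, Lyz2, Sprr1a, Ccl8, Sprr2f, S100a6, Ccl17, Cfp, Krt20 and C3. They encode proteins of the injured tubule, p53-driven arrest, squamous barriers, macrophages, chemokine signals and complement. The 12 largest falls were Slco1a1, Slc7a13, Kap, Inmt, Slc22a7, Ces1g, Pzp, Gm6300, Mep1b, Akr1c14, Acsm3 and Azgp1, which include 3 solute carriers, a brush border protease and several enzymes of small-molecule metabolism. All 24 kept their call and direction under each of the 28 other settings. The gene lists used below were written with earlier results of these data known; their counts and medians are descriptions.

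**Figure D1:**
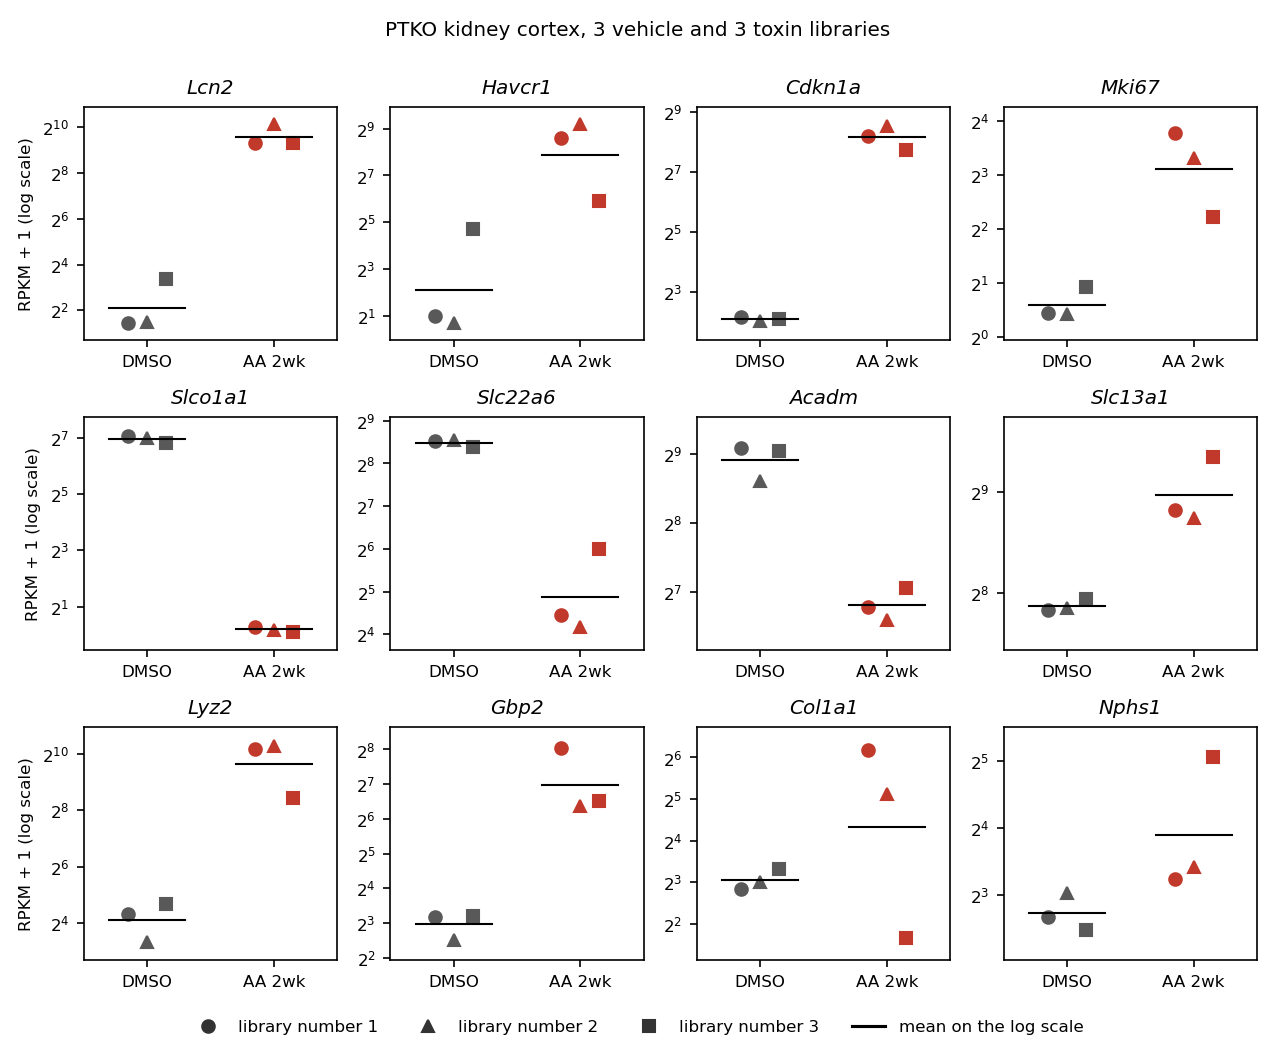
RPKM + 1 on a log scale in each PTKO library for 12 genes, with DMSO in grey, AA 2wk in red, marker shape for the library number and a bar for the mean on the log scale. For Lcn2, Cdkn1a, Slco1a1 and Acadm the 3 toxin libraries sit together and far from vehicle, while for Havcr1 (58.7 RPKM), Col1a1 (2.16) and Nphs1 (32.1) AA 2wk number 3 departs from the other toxin libraries.

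Genes of the injured tubule rose almost without exception. Of 29 tested members, 28 were higher and none lower, with a median of 2.85 against 0.29 over all genes; 45.9% of all genes were called higher. Lcn2, a lipocalin that binds iron-carrying siderophores and is released by damaged tubules, was 1.71, 1.81 and 9.34 RPKM in DMSO and 630, 1120 and 626 RPKM in AA 2wk (7.47 ± 0.57, adjusted p = 3.54e-07). The toxin libraries were all far above the highest vehicle library, DMSO number 3. Havcr1, the phosphatidylserine receptor known as kidney injury molecule, was 0.978, 0.62 and 24.9 RPKM in DMSO and 383, 579 and 58.7 RPKM in AA 2wk (5.76 ± 0.86, adjusted p = 7.93e-05). Here the 2 libraries numbered 3 came closest to each other, and without AA 2wk number 3 the difference was 6.76.

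Spp1, the secreted phosphoprotein osteopontin, reached 10357, 8829 and 9533 RPKM from 501, 534 and 966. Clu, the chaperone clusterin, went from 195, 220 and 238 to 1408, 2046 and 2058 RPKM. In both, AA 2wk number 3 was as high as its group. The simple-epithelial keratins Krt7, Krt8, Krt18, Krt19 and Krt20 all rose (1.24, 1.55, 2.91, 3.19 and 4.56), as did Sox9, a factor of regenerating tubules (2.30 ± 0.26, adjusted p = 7.61e-06). Vcam1, an adhesion molecule of tubules that fail to recover and of activated endothelium, was 3.8, 4.57 and 9.42 RPKM in DMSO and 58.9, 45.2 and 10.6 in AA 2wk (2.28 ± 0.52, adjusted p = 0.00191), with AA 2wk number 3 barely above DMSO number 3. The exception in the list was Itgb6, an integrin subunit, which was not called (-0.32 ± 0.17, adjusted p = 0.125) and was called lower after median-of-ratios scaling and quantile normalization.

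Proteins of squamous barriers and S100 calcium-binding proteins accompanied them, with 13 of 15 tested members higher and none lower (median 1.89). Over all genes 45.9% were higher. Sprr1a, a cornified envelope protein, was 1.1, 4.12 and 5.75 RPKM in DMSO and 362, 257 and 40.4 RPKM in AA 2wk (5.23 ± 0.68, adjusted p = 2.66e-05). Sprr2f was listed at 0 in 2 DMSO libraries and at 0.225 in the other, and reached 31.4, 69.8 and 16.8 RPKM. The Sprr2 genes are a cluster of similar copies, and the share of reads of each copy is uncertain. S100a6 rose from 10.2, 10.7 and 18.6 to 659, 815 and 120 RPKM (4.87 ± 0.52, adjusted p = 5.3e-06). The basal keratins Krt14 and Krt17 did not reach 1 RPKM in any of the 6 libraries, and Krt5 was not called (0.31 ± 0.37, adjusted p = 0.472).

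Targets of p53 rose as a group. Of 28 tested, 22 were higher and 2 lower, with a median of 1.79, against 45.9% higher and 14.3% lower over all genes. Cdkn1a, the cyclin-dependent kinase inhibitor p21, had the smallest adjusted p of the genes named here: it was 3.47, 3.09 and 3.28 RPKM in DMSO and 294, 368 and 215 RPKM in AA 2wk (6.06 ± 0.18, adjusted p = 1.35e-11). The 3 libraries of each group lay close together and the groups far apart. Gdf15, a stress hormone of the TGF-beta family, went from 5.89, 8.48 and 5.74 to 148, 154 and 114 RPKM (4.19 ± 0.16, adjusted p = 3.3e-10).

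Mdm2, the ubiquitin ligase that limits p53, was 14.9, 13.6 and 15.9 RPKM in DMSO and 74.2, 94 and 26.9 in AA 2wk (1.89 ± 0.30, adjusted p = 0.000133). Phlda3, a repressor of Akt, rose by 3.70 ± 0.26 (adjusted p = 1.72e-07). Of the proapoptotic genes, Bax rose by 1.32 and Bbc3 by 1.90, and Pmaip1 rose as well (adjusted p = 1.17e-06). The members that fell were 9030617O03Rik, listed under its older symbol and now Dglucy (-0.52 ± 0.14, adjusted p = 0.00596), and Rrm2b, a ribonucleotide reductase subunit (-0.31 ± 0.11, adjusted p = 0.0227). The call of Rrm2b was lost without DMSO number 3 (0.134), AA 2wk number 2 (0.07) or AA 2wk number 3 (0.0551). Sesn1, Sesn2, Perp and Xpc were not called.

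Genes of DNA damage signalling and repair moved less. Of 23 tested, 16 were higher, against 45.9% over all genes, and none lower, with a median of 0.58. Among genes of nucleotide excision repair, which removes bulky adducts, Ercc1 rose (1.44 ± 0.22, adjusted p = 8.92e-05), Ercc2 was called at 0.29 (adjusted p = 0.0445; 0.01 and not called after median-of-ratios scaling), and Xpa, Xpc, Ddb2 and Ercc6 were not called. The group is sensitive to scaling, since 12 were higher after median-of-ratios scaling and 7 higher with 2 lower after quantile normalization, and 7 of the 16 calls held under all 28 settings.

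Cell cycle genes rose with the injury genes. Of 25 tested, 24 were higher and none lower (median 1.63), against 45.9% higher over all genes, and 22 kept the call under all settings. Mki67, the proliferation marker Ki-67, was 0.358, 0.339 and 0.888 RPKM in DMSO and 12.7, 9.02 and 3.65 RPKM in AA 2wk (2.51 ± 0.38, adjusted p = 9.33e-05). Top2a, the replication topoisomerase, was 0.525, 0.483 and 1.43 against 19.3, 12.7 and 4.59 RPKM (2.71 ± 0.42, adjusted p = 0.000113). Each toxin library was above each vehicle library for both genes, and within the groups DMSO number 3 was the highest and AA 2wk number 3 the lowest. Ube2c, the conjugating enzyme of the anaphase-promoting complex, gave the largest rise of the list (2.80 ± 0.48, adjusted p = 0.000235), from 1.22, 0.786 and 2.55 to 28.8, 20.5 and 6.49 RPKM. The helicase subunit Mcm6 was not called (0.64, adjusted p = 0.0628), and Ccnb1 lost its call after quantile normalization (0.35, adjusted p = 0.0945).

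Promoters of the cell cycle genes that rose are shown because many share 2 short elements known from mitotic genes, the CHR (TTTGAA) and the CCAAT box (CCAAT). The sequences are from RefSeq, build GRCm38.p6, 250 bases before to 50 after the start, 5′ to 3′ on the gene's strand, with matches to either element on either strand in capitals.
Ube2c: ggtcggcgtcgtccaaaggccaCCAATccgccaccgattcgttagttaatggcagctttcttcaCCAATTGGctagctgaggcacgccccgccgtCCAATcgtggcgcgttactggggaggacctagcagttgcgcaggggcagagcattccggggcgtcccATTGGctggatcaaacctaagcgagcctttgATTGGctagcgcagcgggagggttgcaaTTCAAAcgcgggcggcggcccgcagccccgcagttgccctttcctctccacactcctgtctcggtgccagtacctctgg
Plk1: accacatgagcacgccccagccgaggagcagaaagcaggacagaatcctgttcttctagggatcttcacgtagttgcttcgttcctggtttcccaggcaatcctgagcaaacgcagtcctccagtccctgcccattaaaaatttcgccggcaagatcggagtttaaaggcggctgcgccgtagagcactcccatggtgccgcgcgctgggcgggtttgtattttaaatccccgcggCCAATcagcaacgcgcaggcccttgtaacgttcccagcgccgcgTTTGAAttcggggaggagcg
Ccnb2: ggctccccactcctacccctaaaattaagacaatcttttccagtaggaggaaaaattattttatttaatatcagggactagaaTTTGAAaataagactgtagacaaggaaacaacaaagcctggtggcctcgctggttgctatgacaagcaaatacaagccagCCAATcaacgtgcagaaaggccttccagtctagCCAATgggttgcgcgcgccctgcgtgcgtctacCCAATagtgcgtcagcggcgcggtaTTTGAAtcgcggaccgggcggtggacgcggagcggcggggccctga
Cdc20: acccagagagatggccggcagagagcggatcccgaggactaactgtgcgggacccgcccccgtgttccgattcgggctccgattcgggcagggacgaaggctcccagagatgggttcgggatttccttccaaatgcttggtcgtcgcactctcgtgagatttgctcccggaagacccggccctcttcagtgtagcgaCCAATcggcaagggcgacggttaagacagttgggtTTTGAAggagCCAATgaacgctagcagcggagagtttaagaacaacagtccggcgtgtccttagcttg

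These windows lie at chr2:164769679-164769978 (plus strand, Ube2c), chr7:122159185-122159484 (plus, Plk1), chr9:70421505-70421804 (minus, Ccnb2) and chr4:118437294-118437593 (minus, Cdc20). Of the list's 25 genes, 20 promoters were in the RefSeq table; TTTGAA was in 11 of them (55%) and in 17.9% of all 32851 promoters, and CCAAT was in 17 of them (85%) and in 37.4% of all. A CCAAT match next to its reverse complement overlaps it, as in Ube2c, whose window holds 6 matches. The elements were looked for after the values were seen, and a match is not a binding site. Plk1, the mitotic polo-like kinase, rose by 1.60 (adjusted p = 0.000502), Ccnb2, a mitotic cyclin, by 2.19 (0.000145), and Cdc20, an activator of the anaphase-promoting complex, by 1.42 (0.00438).

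Transcripts of the proximal tubule's straight segment and other steeply reduced tubule transcripts fell in every case. The list of 16 was assembled with earlier results of these data known, so its direction is no evidence of its own, and the levels are what it adds (16 lower, median -3.86). Slco1a1, an organic anion transporter of the apical membrane, was 134, 126 and 113 RPKM in DMSO and 0.219, 0.123 and 0.0812 RPKM in AA 2wk (-6.78 ± 0.31, adjusted p = 3.31e-09). Slc7a13, an anionic amino acid transporter of the S3 segment, was 530, 529 and 537 against 11.7, 2.58 and 3.89 RPKM (-6.46 ± 0.49, adjusted p = 3.52e-07). Kap, the androgen-regulated protein the most abundant of all genes in the lists, was 50475, 44612 and 49783 against 1529, 618 and 410 RPKM (-6.05 ± 0.55, adjusted p = 1.45e-06).

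AA 2wk number 3 stood apart in most lists by a smaller change, but not in this one. Its median difference from vehicle was -4.15, against -3.11 and -3.86 in numbers 1 and 2, and it was below at least 1 sister library for 14 of the 16 transcripts. Slc22a7, an organic anion transporter, fell from 137, 97.7 and 119 to 4.45, 0.624 and 2.25 RPKM. Inmt, a methyltransferase of indole amines, fell from 1271, 1305 and 1287 to 32.8, 11.3 and 55.9 RPKM, and was highest in number 3. In bulk cortex, fewer cells of a type and less RNA per cell cannot be told apart.

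**Figure D2:**
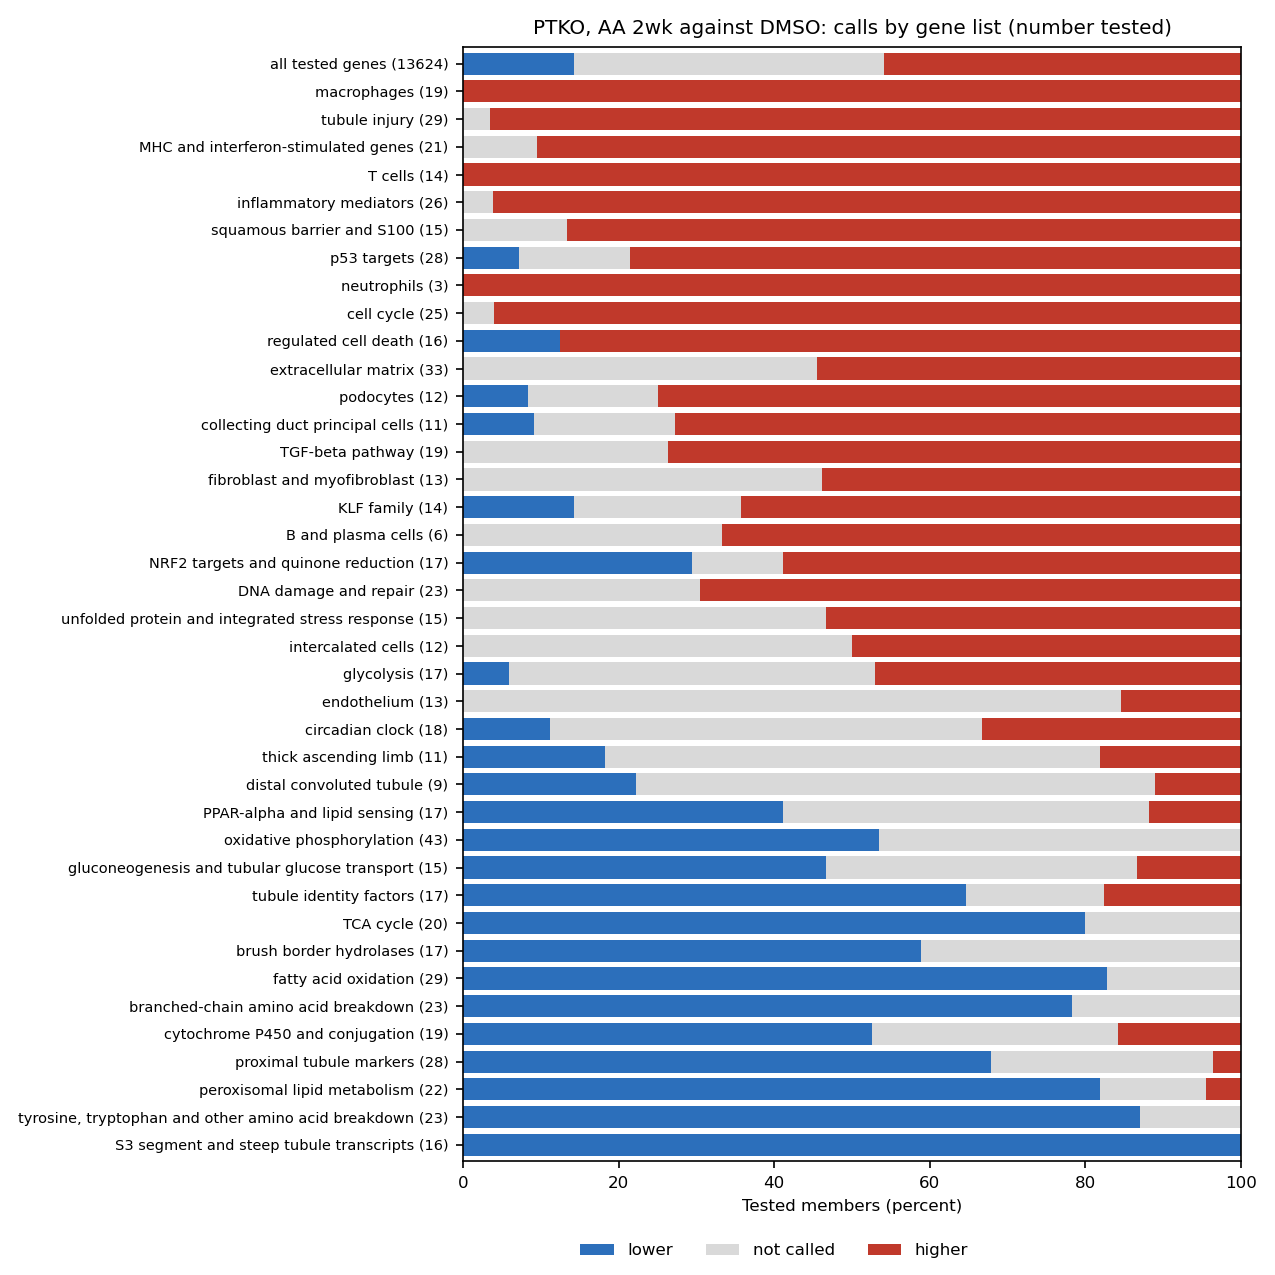
Share of tested members called lower (blue), not called (grey) or called higher (red) in PTKO AA 2wk against DMSO for each gene list with at least 3 tested genes, ordered by median, with the number tested in parentheses and all 13624 tested genes at the top. Macrophage, T cell and neutrophil markers are called higher throughout, the straight-segment list is called lower throughout, and over all genes 45.9% are higher and 14.3% lower.

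Markers of the proximal tubule as a whole fell less steeply and not all together. Of 28 tested, 19 were lower and 1 higher, with a median of -1.13, against 14.3% lower over all genes. Slc22a6 and Slc22a8, the basolateral organic anion transporters known to take up aristolochic acid, both fell. Slc22a6 was 365, 373 and 332 RPKM in DMSO and 21, 16.9 and 62.4 in AA 2wk (-3.61 ± 0.57, adjusted p = 0.000119). Slc22a8 was 214, 271 and 223 against 35.5, 38.1 and 123 RPKM (-2.07 ± 0.56, adjusted p = 0.00561). For both, AA 2wk number 3 was the highest toxin library and still below vehicle.

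Acy3, an aminoacylase, fell by 3.92 ± 0.26 (adjusted p = 1.12e-07), from 2028, 2259 and 2200 RPKM to 145, 115 and 171 RPKM. Slc34a1, the sodium-phosphate cotransporter, was 2525, 2700 and 2288 RPKM in DMSO and 849, 768 and 2226 in AA 2wk (-1.14 ± 0.34, adjusted p = 0.0098). AA 2wk number 3 was close to vehicle there, the difference was -1.63 without it, and the call was lost without AA 2wk number 1 or 2 (adjusted p = 0.0511 and 0.0583). Lrp2, the endocytic receptor megalin, fell by 0.93 on the log2 scale (SE 0.31, adjusted p = 0.0163), a call lost without DMSO number 2 (0.0907), AA 2wk number 1 (0.0557) or number 2 (0.0598). Its partner Cubn was not called (-0.50 ± 0.30, adjusted p = 0.164). Without AA 2wk number 3 Cubn was called lower (-0.76, adjusted p = 0.044), as it was after median-of-ratios scaling (-0.83, adjusted p = 0.0406).

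Luminal transporters of the list went both ways. Slc22a12, the urate exchanger, fell by 3.31 on the log2 scale (adjusted p = 3.18e-05) and Slc3a1, a subunit of the cystine transporter, by 1.25 (adjusted p = 4.83e-05). Slc13a1, the apical sodium-sulfate cotransporter, rose from 227, 230 and 245 to 451, 427 and 650 RPKM (1.09 ± 0.25, adjusted p = 0.00168), and did so in each toxin library and under every other setting. Slc5a2, the glucose transporter SGLT2 of the early segment, was 153, 180 and 158 RPKM in DMSO and 150, 132 and 359 in AA 2wk (0.24 ± 0.29, adjusted p = 0.492). Without number 3 its difference was -0.21 (adjusted p = 0.338). The lactate transporter Slc5a12, the basolateral carriers Slc4a4 and Slc7a8 and the endocytic adaptor Dab2 were not called either.

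Of 17 brush border hydrolases and scaffolds, 10 were lower and none higher (median -0.75), against 14.3% lower over all genes. Mep1b and Mep1a, the meprin subunits, fell by 4.50 ± 0.40 and 2.24 ± 0.26 on the log2 scale; Mep1b was 112, 113 and 127 RPKM in DMSO and 8.9, 2.38 and 3.28 in AA 2wk. Ace, the angiotensin-converting enzyme, fell from 73.4, 59.6 and 70.5 to 6.42, 3.05 and 6.66 RPKM (-3.48 ± 0.28, adjusted p = 4.65e-07). The peptidases Anpep, Enpep and Dpp4 and the phosphatase Alpl were not called (adjusted p = 0.109, 0.867, 0.178 and 0.952). Anpep was 79, 73.4 and 70.9 RPKM in DMSO and 53.5, 37.9 and 88.4 in AA 2wk. Without AA 2wk number 3 Anpep was called lower (-0.71, adjusted p = 0.000375), as it was after median-of-ratios scaling (-0.73, adjusted p = 0.0251).

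Fatty acid oxidation fell broadly. Of 29 tested genes, 24 were lower and none higher, with a median of -0.91, against 14.3% lower over all genes. Acadm, the medium-chain acyl-CoA dehydrogenase, was 541, 387 and 527 RPKM in DMSO and 109, 96.5 and 133 in AA 2wk (-2.09 ± 0.19, adjusted p = 1.11e-06), with all toxin libraries together and below vehicle. Cpt2, the inner-membrane carnitine acyltransferase, was 94.3, 92.4 and 92.5 against 33, 29.7 and 60.4 RPKM (-1.23 ± 0.24, adjusted p = 0.000561). Cpt1a, its partner at the outer membrane and the entry step of the pathway, was 145, 144 and 152 against 84.1, 80.9 and 154 RPKM and was not called (-0.53 ± 0.23, adjusted p = 0.0582). Without AA 2wk number 3 it was called (-0.83, adjusted p = 0.0017), and it was also called after median-of-ratios scaling (-0.87, adjusted p = 0.0147). Hadha, Eci1, Acaa2 and Slc25a20, the carnitine-acylcarnitine carrier, were not called as deposited.

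Peroxisomal lipid metabolism fell as widely: 18 of 22 were lower and 1 higher (median -1.18), against 14.3% lower over all genes. Ehhadh, the peroxisomal bifunctional enzyme, was 350, 244 and 250 RPKM in DMSO and 39.2, 28.8 and 81 in AA 2wk (-2.59 ± 0.38, adjusted p = 6.72e-05). Amacr, a racemase of branched acyl-CoA, fell by 2.91 ± 0.20 on the log2 scale (adjusted p = 1.5e-07).

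Ppara, the nuclear receptor that drives many of these genes, was 19, 21.7 and 24.3 RPKM in DMSO and 13.6, 13.9 and 22.1 in AA 2wk (-0.40 ± 0.29, adjusted p = 0.251). It was called with library quality weights (-0.55, adjusted p = 0.00717), without fl/fl AA 2wk number 3 (adjusted p = 0.041) and without both AA 2wk libraries numbered 3 (-0.61, adjusted p = 0.000512). Ppara was not called without PTKO AA 2wk number 3 alone (-0.61, adjusted p = 0.0955) or after median-of-ratios scaling (-0.72, adjusted p = 0.0731). Its coactivator Ppargc1a was not called (-0.34 ± 0.18, adjusted p = 0.107) except after median-of-ratios scaling (-0.66, adjusted p = 0.00562). In the PPAR-alpha and lipid sensing list, 7 of 17 were lower and 2 higher (median -0.35), against 14.3% lower and 45.9% higher over all genes. Cd36, a fatty acid translocase, fell from 183, 176 and 181 to 25.4, 14.5 and 8.41 RPKM (-3.53 ± 0.34, adjusted p = 1.92e-06), lowest in AA 2wk number 3. The members that rose were Plin2, which coats lipid droplets (1.25 ± 0.13, adjusted p = 3.72e-06; 45.7, 49.2 and 55 against 118, 146 and 100 RPKM), and Ucp2, a mitochondrial carrier (1.80 ± 0.17, adjusted p = 1.79e-06).

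Amino acid breakdown followed the same course. In branched-chain amino acid breakdown 18 of 23 were lower and none higher (median -0.92), and in the tyrosine, tryptophan and other list 20 of 23 were lower and none higher (median -1.22). Over all genes 14.3% were lower. Ivd, isovaleryl-CoA dehydrogenase, was 178, 162 and 152 RPKM in DMSO and 41.7, 46.9 and 59.1 in AA 2wk (-1.73 ± 0.18, adjusted p = 4.27e-06). Bckdha, the committed-step dehydrogenase subunit, fell by 1.09 ± 0.23 on the log2 scale (adjusted p = 0.00111), with 159 RPKM in AA 2wk number 3 against 81.2 and 81.4 in its group. Its partner subunit Bckdhb was not called (adjusted p = 0.245). Hpd, an enzyme of tyrosine breakdown, fell from 18.2, 15.8 and 12.5 to 0.0798, 0.102 and 0.177 RPKM (-3.87 ± 0.37, adjusted p = 1.92e-06). Among kynurenine pathway genes, Kmo, Haao, Afmid, Acmsd and Qprt all fell (-1.79, -2.76, -1.46, -0.99 and -0.86), and Kynu was not called (0.60 ± 0.33, adjusted p = 0.128).

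In gluconeogenesis and tubular glucose transport 7 of 15 were lower and 2 higher (median -0.46), against 14.3% lower and 45.9% higher over all genes. G6pc, glucose-6-phosphatase, was 237, 346 and 288 RPKM in DMSO and 41.6, 52.7 and 121 in AA 2wk (-2.14 ± 0.43, adjusted p = 0.000715). Pck1, the cytosolic PEP carboxykinase, fell by 1.86 ± 0.57 on the log2 scale (adjusted p = 0.0116), but not without AA 2wk number 2 (-1.31, adjusted p = 0.0715). Got1, the cytosolic aspartate aminotransferase, was called higher at 0.31, near the median of all genes, and turned to -0.03 (adjusted p = 0.874) after median-of-ratios scaling.

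In glycolysis, 8 of 17 were higher, near the 45.9% of all genes, and 1 lower (median 0.37, near the median of all genes). Those that rose include the glucose transporter Slc2a1 (21.3, 20.8 and 19.4 against 45, 55.1 and 39.3 RPKM; 1.13 ± 0.12, adjusted p = 4.25e-06), the hexokinases Hk1 and Hk2 (0.82 and 1.49) and Pkm (0.95 ± 0.12, adjusted p = 2.34e-05). The muscle-type phosphofructokinase Pfkm was lower (-0.54 ± 0.20, adjusted p = 0.0312), a call lost without any 1 of DMSO number 1, 2 or 3 (adjusted p = 0.0579, 0.0636 and 0.0766) or AA 2wk number 1 or 2 (0.125 and 0.143), while Pfkp was higher (1.07). Ldha and Aldoa were not called (-0.10 and 0.20). After median-of-ratios scaling the list counted 7 higher and 4 lower.

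Mitochondrial energy genes fell by small amounts. In the TCA cycle 16 of 20 were lower, against 14.3% over all genes, and none higher (median -0.65, largest fall Dlst at -0.80 ± 0.12, adjusted p = 8.57e-05). Cs, citrate synthase, was 151, 156 and 147 against 123, 144 and 154 RPKM and not called (-0.11 ± 0.10, adjusted p = 0.326). In oxidative phosphorylation, nuclear-encoded genes only, 23 of 43 were lower and none higher (median -0.35), against 14.3% lower over all genes. Ndufs1 of complex I was 127, 138 and 123 against 66, 63.1 and 91 RPKM (-0.83 ± 0.15, adjusted p = 0.000418), Uqcrc2 of complex III gave -0.67 ± 0.14 and Atp5b of the ATP synthase -0.61 ± 0.16. Of the 9 tested subunits of complex IV, among them Cox4i1 (-0.27 ± 0.15, adjusted p = 0.138), none was called as deposited. Without AA 2wk number 3 Cox4i1 was called lower (-0.41, adjusted p = 0.0265), as it was after median-of-ratios scaling (-0.61, adjusted p = 0.0189). The count over this list was the most sensitive of the metabolic ones: 38 lower after median-of-ratios scaling, 12 after quantile normalization and 31 without AA 2wk number 3, whose own median difference was -0.12 against -0.50 and -0.47.

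Factors that define tubule identity moved in both directions. Of 17 tested, 11 were lower and 3 higher (median -0.50), against 14.3% lower and 45.9% higher over all genes. Hnf4a, the nuclear receptor of proximal tubule maturation, was 298, 279 and 268 RPKM in DMSO and 128, 122 and 158 in AA 2wk (-1.05 ± 0.17, adjusted p = 0.000146). The groups did not overlap. Pax8, a factor of the developing and adult tubule, rose (0.84 ± 0.14, adjusted p = 0.000211; 47.4, 48.5 and 45.1 against 81.8, 106 and 70.3 RPKM) under every setting. Pax2 and Tfcp2l1 rose by 0.62 and 0.55, and both calls were lost after median-of-ratios scaling (adjusted p = 0.092 and 0.0646).

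In the cytochrome P450 and conjugation list 10 of 19 were lower and 3 higher (median -0.94), against 14.3% lower and 45.9% higher over all genes. Cyp2e1 fell from 703, 791 and 643 to 90.3, 47.9 and 314 RPKM (-2.67 ± 0.52, adjusted p = 0.000584). Ces2e, a carboxylesterase, rose against the list, from 7.93, 9.25 and 9.5 to 44.7, 49.6 and 46.4 RPKM (2.28 ± 0.29, adjusted p = 2.21e-05), with AA 2wk number 3 inside the range of its group. The other rises, Cyp4a12b and Ugt1a6a (0.82 and 0.42), lost their calls after median-of-ratios scaling (adjusted p = 0.127 and 0.218), and both belong to families with similar copies. Cyp1a1 and Cyp1a2, known to metabolize the toxin, did not exceed 0.376 RPKM and were not tested.

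NRF2 targets split. Of 17 tested, 10 were higher and 5 lower (median 0.63), against 45.9% higher and 14.3% lower over all genes. After median-of-ratios scaling 6 were higher and 5 lower. Nqo1, the quinone reductase that can activate the toxin, was 47.5, 37.9 and 43.4 RPKM in DMSO and 27.6, 22.1 and 30.5 in AA 2wk (-0.67 ± 0.25, adjusted p = 0.0293); the groups did not overlap, and the call was lost without DMSO number 1 or 3 (adjusted p = 0.0901 and 0.0658) or AA 2wk number 1 or 2 (0.0547 and 0.115). Gclm, a subunit of the rate-limiting enzyme of glutathione synthesis, fell by 1.03 ± 0.11 on the log2 scale (adjusted p = 5.06e-06; 164, 133 and 167 against 77.3, 75.8 and 70.6 RPKM), as did Gsr, glutathione reductase (-0.60 ± 0.13). Ephx1, epoxide hydrolase, rose from 23.8, 28.1 and 28.9 to 182, 231 and 243 RPKM (2.97 ± 0.22, adjusted p = 2.19e-07), and the factor Nfe2l2 itself by 0.99 ± 0.15 (adjusted p = 9.76e-05).

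Beyond the proximal tubule, markers of other segments did not move as 1 block. In the thick ascending limb 2 of 11 were higher and 2 lower (median -0.07), against 45.9% higher and 14.3% lower over all genes. Umod, uromodulin, was 1804, 1702 and 2010 RPKM in DMSO and 1644, 1267 and 2756 in AA 2wk, and Slc12a1 was not called either (adjusted p = 0.949 and 0.459). Egf, the growth factor precursor of the distal nephron, was 342, 338 and 297 against 21.8, 16.3 and 58.1 RPKM (-3.51 ± 0.67, adjusted p = 0.000514), so that each toxin library lay far below vehicle while Umod overlapped.

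The distal convoluted tubule showed the same contrast between single genes. Pvalb, the calcium buffer of its early part, fell from 26.4, 27.7 and 31 to 0.783, 1 and 0.535 RPKM (-4.05 ± 0.48, adjusted p = 1.15e-05), while Slc12a3, the thiazide-sensitive cotransporter, was not called (-0.37 ± 0.31, adjusted p = 0.323). Slc12a3 was 203, 233 and 185 RPKM in DMSO and 114, 133 and 268 in AA 2wk. Without AA 2wk number 3 it was called lower (-0.74, adjusted p = 0.0322). Trpv5, a calcium channel of its late part, rose (1.41 ± 0.16, adjusted p = 9.1e-06; 9.16, 9.7 and 8.68 against 20.1, 31.6 and 27.8 RPKM). In all, 1 of 9 was higher and 2 lower, against 45.9% higher and 14.3% lower over all genes.

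Markers of collecting duct principal cells were mostly higher, 8 of 11 with 1 lower (median 0.98), against 45.9% higher over all genes. Aqp2, the vasopressin-regulated water channel, was 85.9, 62.6 and 97.6 RPKM in DMSO and 121, 185 and 313 in AA 2wk (1.24 ± 0.33, adjusted p = 0.00509), and Fxyd4 rose by 1.38 ± 0.22 (adjusted p = 0.00012). Aqp4 was lower (-1.42 ± 0.40, adjusted p = 0.00728) and Aqp3 not called (-0.28 ± 0.27, adjusted p = 0.373). Without AA 2wk number 3 Aqp3 was called lower (-0.63, adjusted p = 0.0252). Of 12 intercalated cell markers, 6 were higher, near the 45.9% of all genes, and none lower (median 0.40). Only 2 of these calls held under all settings, and after median-of-ratios scaling 2 were higher and 2 lower.

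Podocyte markers were higher in 9 of 12 and lower in 1 (median 1.0), against 45.9% higher over all genes; the median was 0.55 without AA 2wk number 3, 5 of the 10 calls held under all settings, and 6 were higher and 2 lower after median-of-ratios scaling. Nphs1, nephrin of the slit diaphragm, was 5.36, 7.1 and 4.54 RPKM in DMSO and 8.37, 9.64 and 32.1 in AA 2wk (1.18 ± 0.33, adjusted p = 0.00723), and 0.60 without number 3 (adjusted p = 0.00508). Its call was lost in a fit of the 6 libraries alone (adjusted p = 0.0751), after median-of-ratios scaling (0.0514) and after quantile normalization (0.0954). The summed level of the podocyte list was 176 to 212 RPKM in DMSO and 283, 297 and 498 RPKM in AA 2wk.

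Of 13 endothelial markers 2 were called higher and none lower (median 0.29, the median of all genes), and neither call held under all settings. Pecam1 was 24.2, 25.7 and 24.8 RPKM in DMSO and 32.7, 28.8 and 31.7 in AA 2wk (0.31 ± 0.15, adjusted p = 0.0975). Ehd3, a marker of glomerular endothelium, was 15.2, 21.4 and 15.4 against 20.8, 23.6 and 64.2 RPKM, and without number 3 it was not called (0.35, adjusted p = 0.163). Plvap, of fenestrated peritubular capillaries, went the other way in that library (114, 117 and 31.3 RPKM, with 99.3, 106 and 104 in DMSO) and was not called.

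Extracellular matrix genes differed sharply between toxin libraries. Of 33 tested, 18 were higher, against 45.9% over all genes, and none lower (median 1.21). Without AA 2wk number 3 these counts were 27 and 0 (median 1.74). Col1a1, the main fibrillar collagen chain, was 6.16, 6.96 and 8.9 RPKM in DMSO and 71.8, 33.5 and 2.16 in AA 2wk, and Col3a1 was 9.64, 9.59 and 15 against 119, 58.4 and 3.33 RPKM. In both, AA 2wk number 3 was below every vehicle library, the difference was not called (1.27 for Col1a1, adjusted p = 0.211, and 1.37 for Col3a1, adjusted p = 0.194), and without that library it was (2.60 and 2.79, adjusted p = 0.00148 and 0.000627). Dcn, Col6a1, Col6a2 and Loxl1 had the same pattern.

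Fn1 and Mmp7 were higher in each toxin library than in each vehicle library. Fn1, fibronectin, was 3.77, 5.45 and 5.27 against 49.7, 43 and 10.2 RPKM (2.34 ± 0.53, adjusted p = 0.0018). Mmp7, a metalloproteinase of injured tubules, was listed at 0 in each vehicle library and at 2.42, 1.59 and 3.67 RPKM in AA 2wk, where number 3 was the highest. The median of the list stood at 2.07, 1.47 and -0.05 above the DMSO mean in AA 2wk numbers 1, 2 and 3.

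Fibroblast and myofibroblast markers were higher in 7 of 13, near the 45.9% of all genes, and lower in none (median 0.79). After median-of-ratios scaling 5 were higher and after quantile normalization 4, and 3 of the 7 calls held under all settings. These were Acta2, S100a4, which is also in the S100 list, and Thy1, which is also in the T cell list. The calls of Tagln, Cnn1, Myl9 and Des were each lost in some setting. Acta2, smooth muscle actin, was 9.1, 20.6 and 13.9 RPKM in DMSO and 115, 80.5 and 28.6 in AA 2wk (2.14 ± 0.59, adjusted p = 0.00607). Pdgfrb was not called (0.52 ± 0.37, adjusted p = 0.229) and was called without AA 2wk number 3 (0.90, adjusted p = 0.0398). In the TGF-beta list 14 of 19 were higher, against 45.9% over all genes, and none lower (median 0.82). Tgfb1, the ligand, rose from 10.3, 11.2 and 10.6 to 47.7, 49.4 and 23.8 RPKM (1.75 ± 0.27, adjusted p = 9.24e-05), the receptors Tgfbr1 and Tgfbr2 by 1.06 and 1.39, and the target Ctgf by 2.04 ± 0.36 (adjusted p = 0.00026). The inhibitory Smad6 and Smad7 were not called.

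Inflammatory mediators rose in 25 of 26 cases, with none lower (median 2.15), against 45.9% higher over all genes. Ccl2, the monocyte chemoattractant, was 1.47, 0.404 and 6.24 RPKM in DMSO and 66.2, 67.9 and 8.3 in AA 2wk (3.58 ± 0.71, adjusted p = 0.000706), so that the libraries numbered 3 nearly met. Ccl8, another monocyte chemokine, was listed at 0 in 2 vehicle libraries and at 0.478 in the third, and reached 77.5, 36.9 and 15.9 RPKM (5.02 ± 1.06, adjusted p = 0.00108). C3, the central complement protein, was 3.64, 4.74 and 12.7 against 184, 208 and 93.7 RPKM (4.43 ± 0.53, adjusted p = 1.23e-05). Cfp, properdin, which stabilizes the alternative pathway convertase, rose by 4.61 ± 0.56 (adjusted p = 1.58e-05). Csf1, the macrophage growth factor, rose by 3.57 and Il34, which shares its receptor, by 1.14. The acute-phase gene Saa3 was not called (adjusted p = 0.0951).

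All 19 macrophage markers were higher (median 3.50), against 45.9% over all genes, and all 19 kept the call under every other setting. Lyz2, lysozyme of myeloid cells, was 19, 9.16 and 24.8 RPKM in DMSO and 1153, 1244 and 344 in AA 2wk (5.51 ± 0.72, adjusted p = 2.76e-05). Emr1, the F4/80 antigen now named Adgre1, was 2.28, 2.01 and 2.5 against 31.2, 71.2 and 11.6 RPKM (3.24 ± 0.51, adjusted p = 0.000124). Mrc1, the mannose receptor, and Trem2, a lipid receptor, reached 20.1, 21.7 and 15.3 RPKM and 11.9, 15.2 and 8.16 RPKM in AA 2wk. The markers summed to 107 to 165 RPKM in DMSO and 3129, 3131 and 1147 RPKM in AA 2wk; they moved with the injury, p53 and tubule lists above, and their part in those results was not tested.

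All 14 T cell markers were higher (median 2.18), against 45.9% over all genes. Cd3g was 0.803, 1.19 and 0.615 RPKM in DMSO and 21.9, 13.1 and 3.15 in AA 2wk (2.57 ± 0.60, adjusted p = 0.00205), and Cd3e gave 2.22 ± 0.49 (adjusted p = 0.00155). Cd4 and Cd8a both rose (2.16 and 1.74). Of 6 tested B and plasma cell markers 4 were higher, against 45.9% over all genes. Among them was Igj, the joining chain of secreted antibodies (1.54 ± 0.43, adjusted p = 0.00701). Cd79a was 0.206, 0.245 and 0.263 against 0.41, 0.262 and 0.546 RPKM and not called.

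Only 3 neutrophil markers were tested, and all were called higher, against 45.9% over all genes. The call of Csf3r held under all 28 other settings (adjusted p at most 0.024). For S100a8 and S100a9, 1 library carried most of the level. S100a8 was 1.4, 0.415 and 0.891 RPKM in DMSO and 2.08, 19.5 and 3.91 in AA 2wk (1.87 ± 0.56, adjusted p = 0.00978), and S100a9 was 1.65, 0 and 0.934 against 1.77, 19.1 and 2 RPKM (1.67 ± 0.61, adjusted p = 0.0282). Without AA 2wk number 2 neither was called (adjusted p = 0.0518 and 0.167), and without DMSO number 2 S100a9 was not (0.119).

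Antigen presentation and interferon-stimulated genes were higher in 19 of 21 and lower in none (median 2.43), against 45.9% higher over all genes. The 19 calls held under every other setting. H2-K1, a class I heavy chain, was 122, 111 and 133 RPKM in DMSO and 951, 686 and 505 in AA 2wk (2.50 ± 0.33, adjusted p = 2.92e-05). H2-Aa, a class II chain of antigen-presenting cells, was 91.9, 68.6 and 105 against 1232, 594 and 570 RPKM (3.08 ± 0.56, adjusted p = 0.000343). Gbp2, an interferon-induced GTPase, was 7.99, 4.74 and 8.28 against 264, 81.5 and 91.2 RPKM (4.01 ± 0.53, adjusted p = 2.91e-05). AA 2wk number 1 was the highest for each, and number 3 lay near number 2. Rsad2 and Ifi44 were not called (-0.56 and 0.02, adjusted p = 0.1 and 0.962).

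Promoters of 3 interferon-stimulated genes that rose are shown for an element like the interferon-stimulated response element (GAAA, any 2 bases, GAAA), given in capitals on either strand, in the same RefSeq windows as above.
Isg15: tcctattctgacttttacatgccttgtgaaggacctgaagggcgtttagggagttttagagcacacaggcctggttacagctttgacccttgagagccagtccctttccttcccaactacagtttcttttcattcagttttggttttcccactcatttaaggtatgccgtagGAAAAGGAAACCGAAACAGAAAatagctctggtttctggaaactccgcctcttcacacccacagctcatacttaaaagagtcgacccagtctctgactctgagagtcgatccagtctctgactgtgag
Ifit1: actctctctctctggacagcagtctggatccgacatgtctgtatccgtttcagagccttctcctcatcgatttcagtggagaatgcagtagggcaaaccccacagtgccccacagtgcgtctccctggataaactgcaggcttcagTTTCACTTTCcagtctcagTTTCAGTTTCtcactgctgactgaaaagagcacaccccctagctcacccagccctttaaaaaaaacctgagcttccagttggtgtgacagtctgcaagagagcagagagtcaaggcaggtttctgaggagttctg
Gbp2: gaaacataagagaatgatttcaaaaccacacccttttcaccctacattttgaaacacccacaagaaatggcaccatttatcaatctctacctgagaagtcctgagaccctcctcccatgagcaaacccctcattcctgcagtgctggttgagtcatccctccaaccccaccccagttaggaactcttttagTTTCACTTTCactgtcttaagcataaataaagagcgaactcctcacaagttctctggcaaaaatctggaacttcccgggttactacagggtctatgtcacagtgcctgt

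They lie at chr4:156200769-156201068 (minus strand, Isg15), chr19:34640639-34640938 (plus, Ifit1) and chr3:142620413-142620712 (plus, Gbp2). In Isg15, 3 matches overlap. The element was in 7 of the list's 20 promoters in the RefSeq table (35%) and in 3.44% of all promoters; 1 of the 7 belongs to Rsad2, which was not called. Isg15, a ubiquitin-like modifier, was 4.34, 1.29 and 2.59 RPKM in DMSO and 27.6, 10.4 and 7.99 in AA 2wk (2.02, adjusted p = 0.000874), and Ifit1 rose by 1.98 (adjusted p = 7.56e-05). Other elements were searched in the same way on both strands. The AP-1 element TGACTCA was in 3 of 26 injury-gene promoters and in 5.2% of all. The kappaB element (GGGAC followed at once by TTTCC) was in 3 of 23 promoters of inflammatory mediators, those of Csf1 and of Nfkb2, which has 2 entries, and in 0.155% of all. The ETS-like element CCGGAAGT was in 2 of 34 promoters of oxidative phosphorylation genes and in 3.89% of all. Of 30 proximal tubule promoters, 1 held the HNF4-like element CAAAGTCCA, which was in 0.475% of all. None of the 30 held the HNF1-like element (GTTAAT, any base, ATT), which was in 0.399% of all.

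In the unfolded protein and integrated stress response list 8 of 15 were higher, near the 45.9% of all genes, and none lower (median 0.55; 6 higher and a median of 0.24 after median-of-ratios scaling). The calls include Atf3 (0.646, 0.37 and 0.743 against 14.7, 9.3 and 6.12 RPKM; 2.73 ± 0.35, adjusted p = 2.21e-05) and Ddit3 (7.33, 8.12 and 9.23 against 37, 35.9 and 31.7 RPKM; 1.96 ± 0.20, adjusted p = 3.5e-06). The endoplasmic reticulum chaperones Hspa5, Pdia4 and Hsp90b1 were not called. In regulated cell death 14 of 16 were higher and 2 lower (median 1.44), against 45.9% higher and 14.3% lower over all genes. Ripk3 and Mlkl, the kinase and effector of necroptosis, rose from 0.325, 0.373 and 0.32 to 7.03, 7.62 and 2.99 RPKM (2.28 ± 0.29, adjusted p = 1.82e-05) and by 1.95 ± 0.32 (adjusted p = 0.000175). Gpx4, which blocks ferroptosis, was lower (-0.39 ± 0.14, adjusted p = 0.0252); the call was lost without DMSO number 1 or 3 (adjusted p = 0.08 and 0.0804) or AA 2wk number 1 or 2 (0.0758 and 0.117).

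Within the KLF family 9 of 14 were higher and 2 lower (median 0.67), against 45.9% higher and 14.3% lower over all genes. Klf15 was the larger of the falls. Klf6, an early injury-induced member, was 9.54, 7.97 and 12.2 RPKM in DMSO and 86.3, 80.2 and 45.3 in AA 2wk (2.68 ± 0.29, adjusted p = 5.39e-06), and Klf5, an epithelial proliferation factor, was 0.529, 0.707 and 0.608 against 8.39, 11.2 and 2.48 RPKM (2.19 ± 0.32, adjusted p = 5.75e-05). Klf4 rose by 2.07. Klf12 was lower (-0.48 ± 0.16, adjusted p = 0.0167), but not without DMSO number 3 (0.085) or AA 2wk number 2 (0.0835).

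Circadian genes were mixed, with 6 of 18 higher and 2 lower (median 0.14), against 45.9% higher and 14.3% lower over all genes. Per1, a repressor of the clock, rose from 2.7, 3.5 and 4.72 to 12.6, 11.7 and 17.9 RPKM (1.70 ± 0.35, adjusted p = 0.000869), and Hlf, an output factor, fell from 31.7, 36.2 and 34.8 to 12.8, 13.5 and 23.8 RPKM (-1.04 ± 0.24, adjusted p = 0.00207). Arntl, the clock activator, was 5.16, 4.22 and 1.54 RPKM in DMSO and 4.38, 3.28 and 0.804 in AA 2wk, and its counterphase output Dbp 23.4, 23.2 and 46.9 against 20.8, 15.3 and 51.1 RPKM. In both groups the library numbered 3 thus had the lowest Arntl and the highest Dbp, and neither gene was called between groups (adjusted p = 0.493 and 0.652). The labels used here give no time of day.

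**Figure D3:**
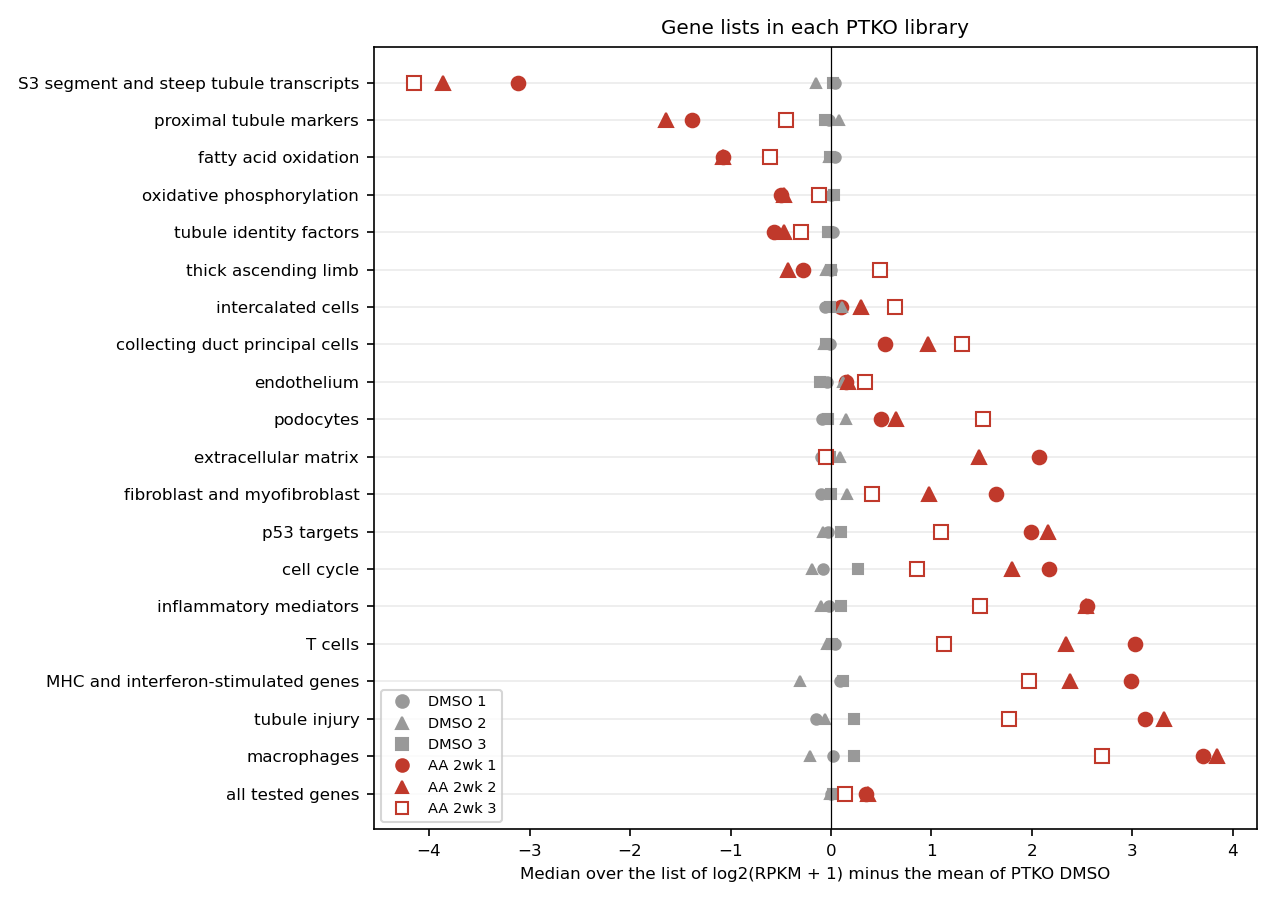
Median over each gene list of log2(RPKM + 1) minus the PTKO DMSO mean, in each DMSO library (grey) and each AA 2wk library (red, number 3 as an open square). AA 2wk number 3 is nearest to vehicle for matrix (-0.05), p53 and tubule injury genes, is the lowest for straight-segment transcripts (-4.15), and is the highest for podocyte (1.51), collecting duct (1.30) and thick ascending limb (0.49) markers.

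AA 2wk number 3 thus differed from numbers 1 and 2 in opposite ways for different groups. Among the 6251 genes called higher it was the lowest toxin library in 5093 and the highest in 605; among the 1947 called lower it was the least reduced in 1214 and the most reduced in 472. It lay inside the DMSO range for 501 called genes, and for 17% of all tested genes. Its injury median was 1.77 against 3.12 and 3.31, its proximal tubule median -0.45 against -1.38 and -1.64, and its thick ascending limb median 0.49 against -0.28 and -0.43. Without it 9293 genes were called (7228 higher, 2065 lower), and 7885 of the 8198 calls were shared in the same direction. The labels name nothing that sets it apart, and the cause was not tested.

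The same 2-week course in fl/fl cortex gave 8524 calls (62.6%), of which 7022 were shared with PTKO in the same direction, 85.7% of the PTKO calls and 82.4% of the fl/fl calls; 8 were called in opposite directions. The difference between the responses, tested as an interaction, was called for 2 genes of 13624 (0.0147%), both with a lower response in PTKO, and voom on recovered reads called 2 as well, the same genes. Without fl/fl AA 2wk number 2 the count was 8, Hprt and Tmem86a among them, and with all libraries 730 genes had an unadjusted p below 0.05.

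**Figure D4:**
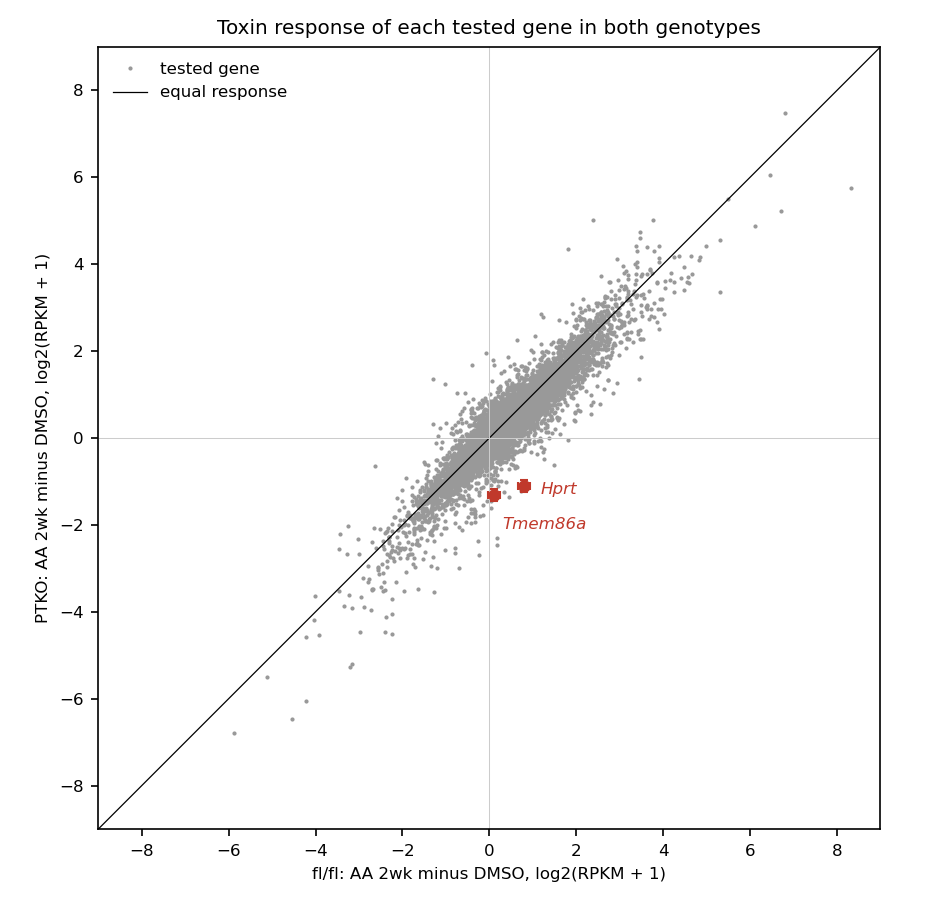
Toxin response of each tested gene in fl/fl (x axis) and PTKO (y axis) as log2 fold change of RPKM + 1, with the line of equal response and SE bars for the called genes. Hprt (0.80 in fl/fl, -1.10 in PTKO) and Tmem86a (0.10 and -1.32) lie below the line, and most genes lie along it.

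Hprt, the purine salvage enzyme (chromosome X, 52988078 to 53021660, GRCm38.p6), was 20.9, 15.9 and 15.1 RPKM in PTKO DMSO and 7.02, 8.15 and 7.29 in PTKO AA 2wk, and 53.5, 48.4 and 61.6 against 88.1, 106 and 91.8 RPKM in fl/fl. It fell in PTKO (-1.10 ± 0.14, adjusted p = 2e-05) and rose in fl/fl (0.80 ± 0.14, adjusted p = 0.000229), a difference of -1.90 ± 0.20 (adjusted p = 0.00108). No library of either genotype and treatment overlapped another group. The call held under all settings (adjusted p from 0.000278 to 0.0132). PTKO AA 4wk stayed at 7.09, 4.84 and 6.82 RPKM. The starting levels of Hprt already differed, lower in PTKO than in fl/fl.

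Tmem86a, a lysoplasmalogenase-like membrane protein (chromosome 7, 47050640 to 47054776), was 31.1, 29 and 35.2 RPKM in PTKO DMSO and 12.8, 14 and 9.85 in PTKO AA 2wk, and 16.9, 19.3 and 14.8 against 17.4, 16 and 21.7 RPKM in fl/fl. It fell in PTKO (-1.32 ± 0.14, adjusted p = 3.86e-06) and was not called in fl/fl (0.10 ± 0.14, adjusted p = 0.548), a difference of -1.42 ± 0.20 (adjusted p = 0.0181). AA 2wk libraries with the same number deviated together across genotypes, and with the replicate block the adjusted p of this difference was 0.0552, with the block within each treatment 0.194. That call was also lost without fl/fl DMSO number 1 (0.0815) or number 3 (0.0541), PTKO DMSO number 1 (0.0739) or number 3 (0.0838), or fl/fl AA 2wk number 1 (0.0558). Its starting levels already differed, higher in PTKO than in fl/fl, and by AA 4wk it was 22.8, 28.4 and 24.7 RPKM in PTKO.

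No other gene passed the test of the difference. Havcr1 gave -2.57 ± 1.22 for PTKO minus fl/fl (adjusted p = 0.936), with the vehicle library of 24.9 RPKM in it, Lcn2 0.68 ± 0.81 (adjusted p = 0.976), Acadm -0.53 ± 0.26 and Klf15 0.40 ± 0.36. The SE of Havcr1 exceeds 1 on the log2 scale, so sizeable differences were not detectable for it.

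PTKO AA 4wk against PTKO AA 2wk gave 354 higher (2.6%) and 213 lower genes (1.56%) of those tested, a comparison that shares the AA 2wk libraries with the one above. Ucp2 rose further (0.69 ± 0.17, adjusted p = 0.0399) and Trf, transferrin, went from 34.2, 39.2 and 26.8 RPKM by 1.67 (adjusted p = 0.00319). Hnf4a fell further (-0.69 ± 0.17, adjusted p = 0.0391), as did Acmsd, a kynurenine pathway enzyme (-1.82, adjusted p = 0.00319), and Ces2e turned down (-1.25, adjusted p = 0.0311). Tmem86a rose (1.0 ± 0.14, adjusted p = 0.00468). The straight-segment genes Slco1a1, Slc7a13 and Kap were not called (0.17, 0.52 and 0.47, adjusted p = 0.754, 0.517 and 0.609), and neither were Lcn2, Havcr1 and Cdkn1a. With the replicate block 1570 genes were called. The number of calls fell to 10 without PTKO AA 4wk number 2, 23 without number 3 and 102 without PTKO AA 2wk number 3, and rose to 1599 without fl/fl AA 2wk number 3 and 1309 without PTKO AA 2wk number 1.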

How the data were processed

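RNA was from kidney cortex, extracted with a column kit and DNase and made into stranded total RNA libraries, per the labels' protocols. The authors deposited 1 table of RPKM values for 24062 genes in 18 libraries; per the submitters' processing notes bcl2fastq 2.19, kallisto (version not given) and build mm10 were used. How reads were assigned to genes for this table is not given in the sources used here. RPKM values were whole multiples of what 1 read is worth for 17579 of 17579 genes above 0 in at least 6 libraries (100%, tolerance 0.02 reads), with 11 to 21.9 M recovered reads per library; no 2 libraries were identical.

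Genes at 1 RPKM or more in at least 3 of 18 libraries (13624) were fitted as log2(RPKM + 1) with limma 3.58.1 and statmod 1.5.0 in R 4.3.3, with the means of all 6 groups, an intensity trend and robust variances, and Benjamini-Hochberg adjustment over all tested genes. The fit was tested on simulated data. Alternatives were another pseudocount, no filter, median-of-ratios scaling, quantile normalization, voom on recovered reads, library quality weights, a replicate block (also within each treatment, chosen after seeing the data), the 6 libraries alone, and leaving out libraries.

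The members and the 42 gene lists were chosen with earlier results of these data known. Genes were named by rule: Klf15; the 12 largest rises and falls without overlap; the key genes, the largest called rise and fall and any call against the majority in each list; and the smallest adjusted p in the other comparisons. Other genes, and the promoter elements, were chosen after their values were seen. Names matched older symbols in 4 cases. Mitochondrially encoded genes were not analysed here, and 27 names that read as dates were left as they are. Some members are counted in the lists but not reported here by name.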

Additional observations from a re-analysis of the deposited data

Results flagged for a closer look

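The 2-week response of Hprt differed between PTKO and fl/fl by -1.90 on the log2 scale (limma, adjusted p = 0.00108), since it was lower after toxin in each PTKO library and higher in each fl/fl library. The response of Tmem86a differed by -1.42 (adjusted p = 0.0181), since it was lower after toxin in each PTKO library while the fl/fl groups overlapped.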

How the results depend on the processing

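The count of genes changed by 2 weeks of toxin stayed within 1.5 times its value under all 28 settings, and the number of the 42 gene lists with more higher than lower calls, 24, was 22 to 24. Of 145 called genes named by the rule, 109 kept call and direction in every setting and 36 lost the call in some. Values of reported genes that reversed include Got1 (-0.03) and Pnpla7 (-0.02) after median-of-ratios scaling, and Ercc2 (-0.15), Ugt1a6a (-0.10), Star (-0.47) and Pnpla7 (-0.16) after quantile normalization. The cause was not tested. The count of genes whose response differs between genotypes, 2, was 158 with library quality weights, 1 without PTKO DMSO number 3 and PTKO AA 2wk number 3, and 1 to 8 when each library was left out. The count for AA 4wk against AA 2wk, 567, was 292 with a pseudocount of 0.1, 1082 after quantile normalization, 1307 with library quality weights, 293 with voom on recovered reads, 34 without PTKO DMSO number 3 and PTKO AA 2wk number 3, and 10 to 1599 when each library was left out. Neither count can be had from the 6 libraries alone. Quality weights used the gene-by-gene method because the default did not converge.

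Same-numbered libraries of PTKO DMSO and AA 2wk did not deviate together (correlations -0.04, -0.13 and -0.16), so the numbers do not pair that comparison. Those of fl/fl and PTKO AA 2wk did (0.44, 0.43 and 0.66), those of PTKO AA 2wk and AA 4wk less (0.10, 0.24 and 0.24), and those of the fl/fl and PTKO DMSO groups gave 0.07, 0.20 and 0.15. With the replicate block 8493 genes changed with toxin, 1 differed in response between genotypes and 1570 differed between AA 4wk and AA 2wk. With a replicate block within each treatment, chosen after seeing the data, 1 differed in response between genotypes (Hprt, adjusted p = 0.00334).

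With 3 libraries a group, depth limits genes near 1 RPKM.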
